A study of Mus musculus with 8 samples.

Results

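Levels of 38 imprinted genes of the mouse were examined in αTC1-6 cells, a pancreatic alpha cell line that makes glucagon, with and without overexpression of the transcription factor Yy1. The genes were listed by symbol from well-known imprinted loci. Measured values were not used for the list, but earlier results of these data were known when it was made. They are 38 of the 75078 Ensembl gene IDs in the deposited table. All 38 matched 1 ID each. They fall into 18 loci, of which 11 hold several of the genes and 7 hold 1. The study transfected αTC1-6 cells with an empty plasmid (4 libraries, numbered 31, 32, 33 and 34 and called controls here) or with a plasmid that overexpresses Yy1 (4 libraries, numbered 45, 46, 47 and 48 and described as under Yy1), 24 h after seeding, in a medium labelled 11 mM. The cells are a clonal line derived from a mouse tumour and carry no other treatment named in the labels. The labels do not state the share of cells that took up the plasmid, the time of harvest or whether the libraries came from separate cultures, so p-values measure the spread between these libraries, which may be technical. The sample numbers follow the groups, so a difference in handling cannot be told apart from the plasmid.

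An imprinted gene is transcribed mainly from the copy inherited from 1 parent. The choice is set by methylation laid down in the germ line at an imprinting control region, which often carries the promoter of a noncoding RNA and governs coding neighbours over long distances. YY1 is a zinc finger protein that can activate or repress promoters and binds clusters of its motif in the control regions of the Peg3 and Gnas loci. In endocrine cells imprinted genes are known for roles in growth, hormone secretion and cell cycle exit. Counts per gene do not separate the parental alleles, so imprinting itself was not measured. Nor can fewer expressing cells and less RNA per cell be told apart in bulk RNA.

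Library totals ran from 20679804 to 33347445 estimated counts. They lay between 20679804 and 30570601 in controls and between 29680177 and 33347445 under Yy1, a difference that did not pass the threshold (two-sided exact permutation p = 0.0571). The smallest was control 33. Yy1 itself stood at 175 ± 5.33 CPM (counts scaled to a common library size; SD, n = 4) in controls and at 5233 ± 464 CPM under Yy1, which matched the labels in all 8 libraries. The counts do not separate transcripts of the plasmid from those of the cells' own Yy1. The cells carried alpha cell transcripts: 11 of 12 alpha cell markers passed the filter on low counts, and Gcg, which encodes proglucagon, stood at 21228 ± 547 CPM in controls and 21291 ± 372 CPM under Yy1. Gc, the vitamin D binding protein gene of primary alpha cells, was at 0 counts in every library, as were Ins1 and Ins2, which encode insulin. Summed levels of beta, delta and PP cell markers ran from 53.6 to 58.2 CPM in controls and from 49.7 to 59.7 CPM under Yy1, nearly all from Nkx6-1, and those of acinar and duct markers from 22.2 to 25.6 and from 24.5 to 28.3 CPM. Summed levels of stromal, endothelial and immune markers ran from 4.71 to 8.06 CPM in controls and from 5.52 to 7.97 CPM under Yy1.

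No imprinted gene was called between the plasmids. Of the 38 genes, 30 passed the filter on low counts, and edgeR's quasi-likelihood test called 0 of them at a Benjamini-Hochberg adjusted p under 0.05 over all 15916 tested genes, of which it called 82 (0.515%; 0.496% as higher under Yy1 and 0.0188% as lower). DESeq2 and limma-voom also called 0 of the 30. An unadjusted p under 0.05 was found for 3 members, Peg10, Zrsr1 and H19, or 3 of 30, against 5.42% of all tested genes. Peg10 had a positive log2 fold change, as 3.23% of all genes did with such a p, and Zrsr1 and H19 had negative ones, as 2.19% did. The smallest adjusted p among the members was 0.714, for Peg10. Libraries of the groups did not overlap for 1 member, H19 (3.33% of the 30), against 3.95% of all tested genes.

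The log2 fold changes of the 30 genes ran from -0.55 for H19 to 0.21 for Kcnq1ot1, with a median of 0.024, beside a median of -0.0025 over all tested genes. They were positive for 21 members and negative for 9, where 48.6% of all tested genes were positive, and 24 lay within 0.1 of 0, where 68.8% of all tested genes did. Most members are abundant. Of the 24 with an average log2 CPM of at least 5, 22 lay within 0.1 of 0 and 1 had an unadjusted p under 0.05, beside 95.3% and 3.46% of the 6384 genes at that level, where 0.0157% were called. Of the 6 rarer members, 5 had negative log2 fold changes, namely Nespas, H19, Mirg, Cdkn1c and Zrsr1. The 95% confidence interval of the log2 fold change lay within 0.25 of 0 on both sides for the same number, 24, which bounds their change at this precision. The 6 others were Nespas, H19, Cdkn1c, Kcnq1ot1, Zrsr1 and Zdbf2. Among the 16 tested genes listed as expressed from the paternal allele the median was 0.034, and among the 11 listed as expressed from the maternal allele it was 0.018. For some, such as Ube3a and Commd1, the listing holds only in certain tissues. The 8 tested members annotated as other than protein coding, which include long noncoding RNAs of control regions, had a median of 0.017, and the 22 coding ones 0.024.

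**Figure D1:**
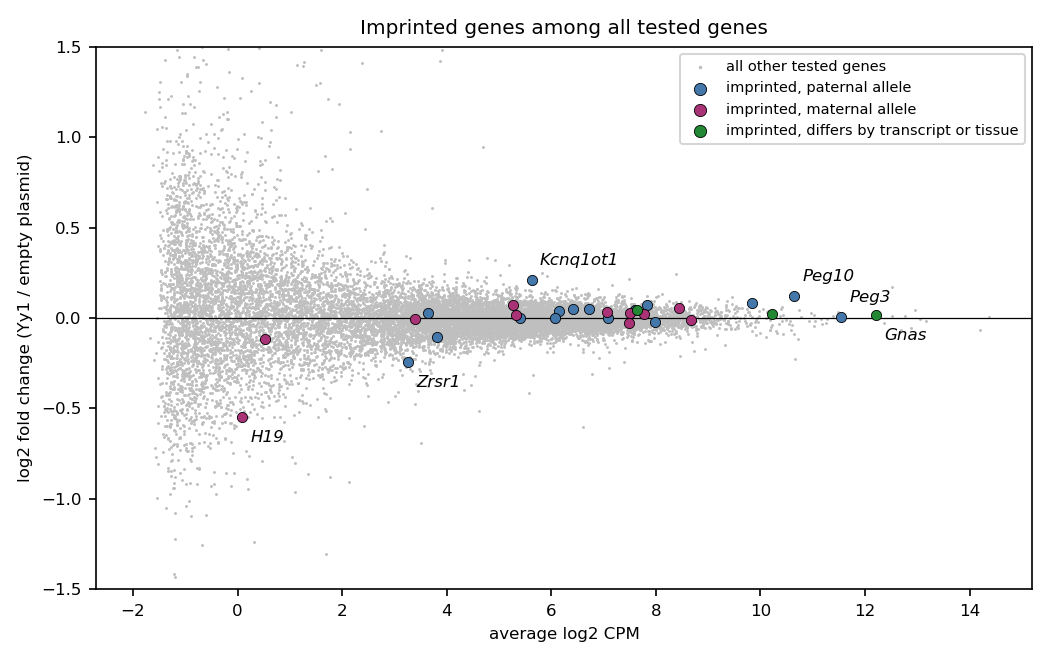
Log2 fold change (vertical axis, Yy1 plasmid against empty plasmid) against average log2 CPM (horizontal axis) for all tested genes in grey and the 30 tested imprinted genes in colour, by the parental allele listed as expressed. The members lie within the cloud of all genes, from -0.55 for H19 to 0.21 for Kcnq1ot1; 72 tested genes, Yy1 among them, lie outside the plotted range of -1.5 to 1.5.

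Many of the genes were strongly transcribed in this line and some were near silent. Levels of different genes are compared here per kilobase of merged exons, since longer transcripts give more counts. By this scale Gnas, which encodes the alpha subunit of the stimulatory G protein, was highest, at 422 ± 5.45 CPM per kilobase in controls (SD, n = 4), which placed it 48th among 25268 genes with a known length and a level above 0. Peg10, a coding gene derived from a retrotransposon, followed at 229 ± 17.7 and Peg3, a zinc finger gene, at 222 ± 10.5 CPM per kilobase. These levels of Peg10 and Peg3 differed by less than their spread. Nap1l5, which encodes a nucleosome assembly protein, stood at 139 ± 9.7 and Grb10, an adaptor that restrains insulin and growth factor receptors, at 130 ± 3.43 CPM per kilobase. The gap between them was smaller than the SD of Nap1l5 but larger than that of Grb10. Zdbf2 followed at 70.7 ± 7.77, Zim1 at 50.9 ± 4.32, Snrpn at 47.7 ± 1.41, Impact at 37.5 ± 2.54 and Copg2 at 35.4 ± 0.726 CPM per kilobase. Scaled by the longest transcript instead, the same 10 genes were highest, with Peg3 and Grb10 ahead of Peg10.

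Transcripts of 8 members were too rare to be tested, with at most 12 counts in any library, or 0.368 CPM. Igf2, a fetal growth factor gene, had 11, 4, 3 and 7 counts in controls and 12, 3, 10 and 4 under Yy1. Dlk1, which encodes a membrane protein of the Notch ligand family, had 2, 4, 2 and 2 counts against 4, 0, 7 and 2, and its neighbour Rtl1, a gene of retrotransposon origin, had between 0 and 5 counts. Nnat, a small membrane protein gene known from beta cells, had 1, 0, 2 and 0 counts in controls and 0 in all 4 libraries under Yy1. Kcnq1, Phlda2, Slc22a18 and Magel2 had at most 2 counts in any library. Where a library had 0 counts, a true level of up to 3 counts is allowed, which is 0.145 CPM for the smallest of the libraries and 0.09 CPM for the largest. At such counts small or moderate differences are out of reach. With no filter, where all 38 genes entered the test, edgeR called 0 of them.

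**Figure D2:**
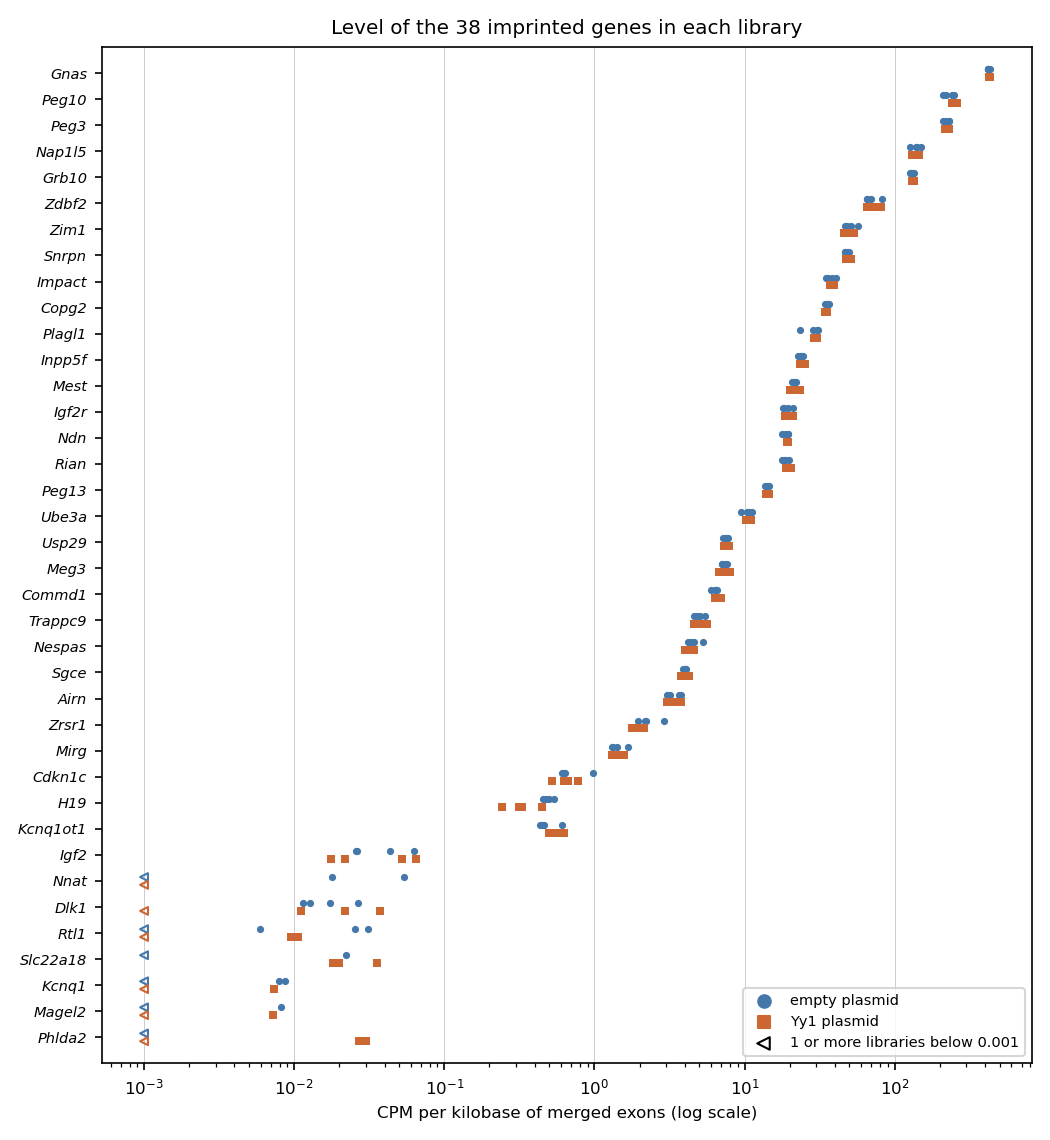
CPM per kilobase of merged exons on a log scale for the 38 imprinted genes, ordered by the mean of the controls, with 1 point per library (circles for the empty plasmid, squares for the Yy1 plasmid, open triangles where at least 1 library lies below 0.001). Gnas, at 422 CPM per kilobase, lies at the top and the 8 untested genes at the bottom, and for most genes the points of the groups lie on top of each other.

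At the Peg3 locus, paternally expressed Peg3 and Usp29 are transcribed in opposite directions from a shared control region that holds YY1 motifs, while Zim1, another zinc finger gene, is expressed from the maternal allele. Peg3 had 2787, 2911, 3087 and 3062 CPM in controls and 2864, 3043, 2944 and 3045 CPM under Yy1. Every library under Yy1 lay inside the range of the controls. The log2 fold change was 0.0059 (SE 0.0444; 95% interval -0.086 to 0.098; edgeR adjusted p = 0.997). In percent this interval runs from -5.79 to 7.02, while the log2 fold change of Yy1 was 4.90 (SE 0.0619). For Peg3 the sign turned without control 31, where it was -0.025, and without control 32 or Yy1 library 46 or 48. Usp29, which encodes a ubiquitin protease, stood at 136 ± 4.59 and 136 ± 4.23 CPM (SD, n = 4), and Zim1 at 412 ± 34.9 and 409 ± 28.3 CPM. All 3 genes of the locus had log2 fold changes within 0.1 of 0.

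The start of Peg3 is shown because the control region begins there. The window runs from 250 bases before to 50 bases after the start in RefSeq's table (build GRCm38.p6, an older build than that of the counts), is printed 5′ to 3′ on the strand of Peg3 with each CG dinucleotide, the site of imprinted methylation, in capitals, and also holds the start of Usp29, which lies 164 bases upstream on the other strand.
Peg3, chr7:6730370-6730669, minus strand: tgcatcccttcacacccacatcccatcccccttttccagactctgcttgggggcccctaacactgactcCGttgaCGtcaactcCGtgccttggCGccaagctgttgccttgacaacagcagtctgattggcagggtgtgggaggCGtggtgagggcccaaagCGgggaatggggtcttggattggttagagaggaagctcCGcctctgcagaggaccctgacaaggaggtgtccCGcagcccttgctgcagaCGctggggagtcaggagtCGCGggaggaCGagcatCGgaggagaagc
The window has 13 CG dinucleotides, against a median of 7 over all promoters in the table, and a GC content of 61.3%. Of all promoters in the table, 62.1% had fewer CG dinucleotides than this window. The core of the YY1 motif, ATGGCG, was not found on either strand in this window, nor was its longer form AANATGGCG. The rest of the control region was not searched, so this says nothing about motifs there. The counts of the study carry no methylation, and none was measured here.

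The same core was searched on both strands in all windows. It was present in 2933 of 32851 windows (8.93%) and in 5 of the 43 windows that the table holds for 28 of the imprinted genes (11.6%). The longer form, which contains the core, was present in 782 windows (2.38%) and in 1 window of a member. The 5 genes with the core were Ube3a, Gnas, Grb10, Commd1 and Meg3, and their matches are printed below, with the core or its reverse complement CGCCAT in capitals, to show where in each window they lie. For Ube3a, the only member with the longer form, the whole window is given.
Ube3a, chr7:59228500-59228799, plus strand: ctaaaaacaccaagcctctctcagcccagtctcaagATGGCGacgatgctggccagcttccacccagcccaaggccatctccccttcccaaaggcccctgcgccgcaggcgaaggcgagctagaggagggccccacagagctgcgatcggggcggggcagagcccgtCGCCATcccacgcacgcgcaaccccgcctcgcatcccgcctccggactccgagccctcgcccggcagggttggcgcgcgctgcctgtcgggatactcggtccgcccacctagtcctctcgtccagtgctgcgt
Gnas, most upstream of 4 listed starts, chr2:174284167-174284226, plus strand: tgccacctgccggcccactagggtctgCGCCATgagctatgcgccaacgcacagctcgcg
Grb10, 1 of 2 starts, chr11:12027937-12027996, minus strand: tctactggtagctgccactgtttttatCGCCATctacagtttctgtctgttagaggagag
Commd1, 1 of 2 starts, chr11:22982235-22982282, minus strand: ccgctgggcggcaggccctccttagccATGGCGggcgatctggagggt
Meg3, 1 of 2 starts, chr12:109540761-109540820, plus strand: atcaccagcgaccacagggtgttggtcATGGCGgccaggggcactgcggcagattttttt
The log2 fold changes of these 5 genes ran from 0.015 to 0.07, with a median of 0.024. The 17 tested members with a counted window and no match had a median of 0.03. None of the 5 had an unadjusted p under 0.05. A match describes the letters of the window and not binding.

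The Gnas locus gives rise to several transcripts that share exons but differ in the parental allele expressed, and to the antisense RNA Nespas from the paternal allele, whose start lies at the control region with YY1 motifs. Gnas had 4696, 4680, 4806 and 4680 CPM in controls and 4797, 4757, 4775 and 4736 CPM under Yy1. The groups overlapped, and the log2 fold change was 0.015 (SE 0.0404; edgeR adjusted p = 0.997). Nespas had 16.6, 14.4, 13.7 and 13.1 CPM in controls and 14.3, 14.4, 12.6 and 12.6 CPM under Yy1. Control 31 was the highest library, and the others overlapped. The log2 fold change of Nespas was -0.11 (SE 0.0809; 95% interval -0.27 to 0.062; edgeR adjusted p = 0.98), and -0.031 without control 31. Counts per gene join the transcripts of Gnas, so a shift among them would not be seen.

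The Dlk1-Meg3 locus showed signal above the filter from its maternally expressed noncoding RNAs, which are read through 1 long transcription unit that also hosts many microRNAs and small nucleolar RNAs. Rian, the most abundant of them by CPM, had 361, 339, 322 and 340 CPM in controls and 372, 353, 348 and 344 CPM under Yy1. Yy1 library 45 was the highest and control 33 the lowest, and the groups overlapped at 361 CPM in control 31. The log2 fold change of Rian was 0.056 (SE 0.0417; edgeR adjusted p = 0.98). Meg3, known from pancreatic islets, stood at 132 ± 5.01 CPM in controls and 135 ± 10.1 CPM under Yy1 (SD, n = 4), and Mirg at 10.5 ± 1.22 and 10.4 ± 0.834 CPM. Per kilobase the order was Rian at 18.7, Meg3 at 7.3 and Mirg at 1.43 CPM in controls. Paternally expressed Dlk1 and Rtl1 were below the filter, as given above.

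At the Kcnq1 locus the long noncoding RNA Kcnq1ot1, transcribed from the paternal allele, silences neighbours that are otherwise read from the maternal one, among them Cdkn1c, an inhibitor of the cell cycle. Kcnq1ot1 had 40.4, 41.9, 42.8 and 56.9 CPM in controls and 50.2, 56.2, 46.6 and 58.2 CPM under Yy1. Control 34 alone lay in the range under Yy1, and the other 3 controls lay below all 4 libraries under Yy1. Kcnq1ot1 had a log2 fold change of 0.21 (SE 0.13; 95% interval -0.096 to 0.52; edgeR adjusted p = 0.957). Without control 34 it was 0.34 and passed the threshold (edgeR adjusted p = 0.0195), the only call of an imprinted gene under the alternatives run. Cdkn1c stood at 1.45 ± 0.374 and 1.32 ± 0.212 CPM (SD, n = 4), with between 33 and 47 counts in a library and a 95% interval of its log2 fold change from -0.58 to 0.35. A change of the size seen without control 34 for Kcnq1ot1 was therefore not excluded for Cdkn1c.

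Zdbf2, a coding gene on another chromosome that was singled out after its values were seen, had a like order over the libraries. It had 828, 885, 830 and 1037 CPM in controls and 908, 1025, 823 and 1031 CPM under Yy1. Libraries 34, 46 and 48 were the highest 3 of the 8 for both genes, as they were for Peg10. The share of counts from mitochondrial genes was 8.81%, 8.89%, 8.55% and 8.75% in libraries 32, 34, 46 and 48 and lower in all odd-numbered ones, between 8.04% and 8.24%. A term for odd against even sample numbers was added after seeing the data. With it, the unadjusted edgeR p of Kcnq1ot1 was 0.0272 in place of 0.147 and that of Peg10 0.00215 in place of 0.0198. Neither gene was called (edgeR adjusted p = 0.684 and 0.213). Without the term, the unadjusted p of Kcnq1ot1 was also under 0.05 with limma-voom (0.032) and with edgeR and no filter (0.0231). For Peg10 these were 0.0183 and 0.00119. The part of the mitochondrial share itself in these values was not tested. The log2 fold change of Zdbf2 was 0.081 (SE 0.0979; edgeR adjusted p = 0.993).

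H19, a maternally expressed noncoding RNA that shares a control region and enhancers with Igf2, was rare. It had 38, 31, 27 and 31 counts in controls and 36, 23, 27 and 19 under Yy1. In CPM these were 1.23, 1.17, 1.32 and 1.11 against 1.1, 0.774, 0.812 and 0.596. All 4 libraries under Yy1 lay below all 4 controls, but the gap between Yy1 library 45 and control 34 was small beside the spread within either group. The log2 fold change was -0.55 (SE 0.249; unadjusted p = 0.0386; edgeR adjusted p = 0.89), so H19 was not called. Leaving out 1 library at a time, its unadjusted p was above 0.05 for 6 of the 8 libraries, up to 0.117 without Yy1 library 48. Igf2 had too few counts for a comparison.

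Peg10 and Sgce share a promoter region and are both expressed from the paternal allele. Peg10 had 1459, 1609, 1398 and 1644 CPM in controls and 1627, 1694, 1612 and 1725 CPM under Yy1. Control 31 and 33 were the low libraries, and control 32 lay just below the range under Yy1. Control 34 alone lay within that range. For Peg10 this gave a log2 fold change of 0.12 (SE 0.0493; 95% interval 0.022 to 0.23; unadjusted p = 0.0198; edgeR adjusted p = 0.714). Sgce, which encodes a sarcoglycan and lies next to Peg10, stood at 42.4 ± 0.712 and 42.5 ± 2.2 CPM (SD, n = 4). The unadjusted p of Peg10 was above 0.05 without control 31 or 33 or without Yy1 library 46 or 48, where it ran from 0.0544 to 0.0761.

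**Figure D3:**
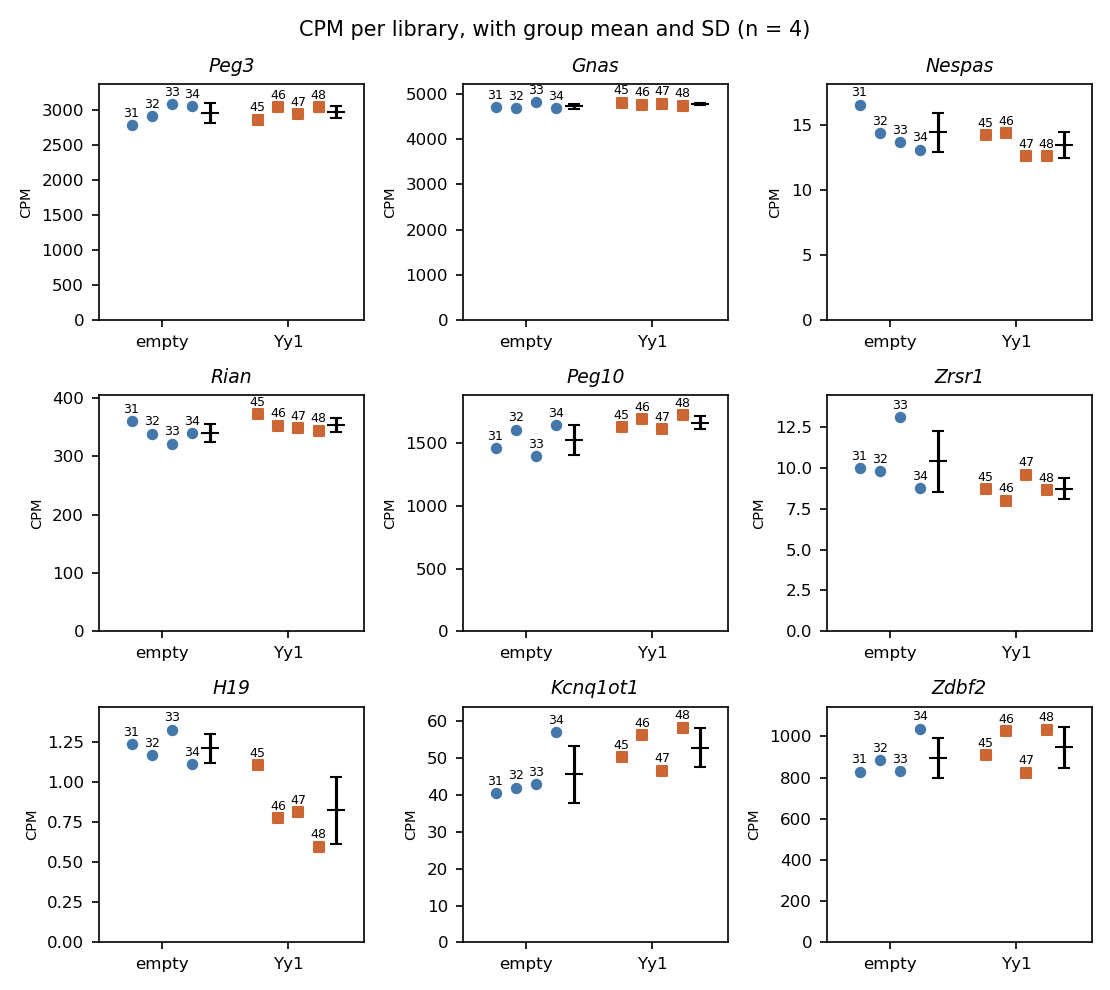
CPM of 9 imprinted genes in each library (circles for the empty plasmid, squares for the Yy1 plasmid, with the sample number above each point), with the group mean and SD (n = 4) as black bars and vertical axes that start at 0. Peg3 and Gnas are level across the libraries, Kcnq1ot1 and Zdbf2 are both high in control 34, and H19 lies between 0.596 and 1.32 CPM.

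Zrsr1, a paternally expressed retrogene for a splicing factor, lies in an intron of Commd1, a gene of copper and endosome transport that is expressed mainly from the maternal allele in brain. Zrsr1 had 9.97, 9.79, 13.1 and 8.77 CPM in controls and 8.68, 7.98, 9.57 and 8.62 CPM under Yy1. Control 33, the library with the fewest counts, was the highest, and the groups overlapped between 8.77 and 9.57 CPM. Zrsr1 had a log2 fold change of -0.24 (SE 0.105; unadjusted p = 0.03; edgeR adjusted p = 0.826). Without control 33 it was -0.13 (unadjusted p = 0.193; edgeR adjusted p = 0.871). The unadjusted edgeR p of Zrsr1 was also above 0.05 without Yy1 library 45, 46 or 48, where it ran from 0.0525 to 0.0866. With limma-voom on all libraries the unadjusted p was 0.058. Zrsr1 has a related copy, Zrsr2, on the X chromosome, and how the counting divided reads between them is not given in the sources used here. Commd1 had 38.6, 35.5, 37.8 and 38.5 CPM in controls and 39.2, 37.6, 41.6 and 39.5 CPM under Yy1. The groups overlapped (log2 fold change 0.07, SE 0.0501; edgeR adjusted p = 0.975).

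The Snrpn-Ube3a locus is the mouse counterpart of the region lost in the Prader-Willi and Angelman syndromes. Ube3a, a ubiquitin ligase gene that is imprinted in neurons and read from both alleles in most other cells, was the most abundant member there by CPM. It had 214, 221, 197 and 232 CPM in controls and 214, 224, 212 and 228 CPM under Yy1. All libraries under Yy1 lay within the range of the controls, and the log2 fold change was 0.024 (SE 0.0458; edgeR adjusted p = 0.997) and -0.017 without control 33. Snrpn, a splicing protein gene, stood at 103 ± 3.05 and 107 ± 3.55 CPM and Ndn, a MAGE family gene, at 69.8 ± 3.15 and 71.7 ± 0.572 CPM (SD, n = 4). Magel2, the neighbour and relative of Ndn, had 1 count at most in any library.

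At the Igf2r locus the paternally expressed RNA Airn runs antisense through Igf2r, which encodes a receptor that clears IGF2 and sorts lysosomal enzymes. Igf2r had 169, 171, 196 and 182 CPM in controls and 175, 173, 196 and 189 CPM under Yy1. The highest libraries of the groups were equal at this rounding, and the log2 fold change was 0.03 (SE 0.0501; edgeR adjusted p = 0.997). Its sign turned without control 31 (-0.0024) or Yy1 library 47 (-0.0044). Airn stood at 12.3 ± 1.31 and 12.5 ± 1.16 CPM (SD, n = 4). The kit keeps strand, but whether the counting used it is not given in the sources used here, so reads of antisense partners such as Airn and Igf2r or Nespas and Gnas may not be fully separated.

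Peg13 is a noncoding RNA within an intron of Trappc9, a gene of vesicle transport. Peg13 had 66.3, 69.2, 64.8 and 68 CPM in controls and 66.1, 67.3, 66.7 and 68.9 CPM under Yy1. The groups overlapped over nearly their whole range (log2 fold change 0.0028, SE 0.0413; edgeR adjusted p = 0.997), and the sign turned without control 31 or 33 or Yy1 library 48, to -0.012 at the lowest. Trappc9 stood at 39.7 ± 2.86 and 40.2 ± 3.54 CPM (SD, n = 4). Copg2, which encodes a coat protein of Golgi vesicles and is the neighbour of Mest, had 177, 186, 183 and 180 CPM in controls and 177, 175, 182 and 179 CPM under Yy1. Its groups also overlapped (log2 fold change -0.028, SE 0.0371; edgeR adjusted p = 0.993). Mest, a paternally expressed hydrolase gene known from growing adipose tissue, stood at 84.1 ± 2.09 and 86.9 ± 5.21 CPM.

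Genes listed alone at their loci were likewise close between the groups. Grb10 stood at 1185 ± 31.2 CPM in controls and 1204 ± 13.1 CPM under Yy1 (SD, n = 4). Plagl1, a zinc finger gene whose human counterpart is implicated in transient neonatal diabetes, stood at 222 ± 26.9 and 234 ± 5.45 CPM, with control 33 lowest at 184 CPM. Nap1l5 stood at 257 ± 17.9 and 252 ± 11.6 CPM, Impact, a regulator of translation under amino acid shortage, at 192 ± 13 and 198 ± 5.79 CPM, and Inpp5f, a phosphoinositide phosphatase gene, at 197 ± 5.96 and 203 ± 5.71 CPM. None of these 5 genes had an unadjusted p under 0.05. The 17 tested members outside the 13 given per library by the naming rule had log2 fold changes from -0.12 to 0.081, and 16 of them lay within 0.1 of 0.

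**Figure D4:**
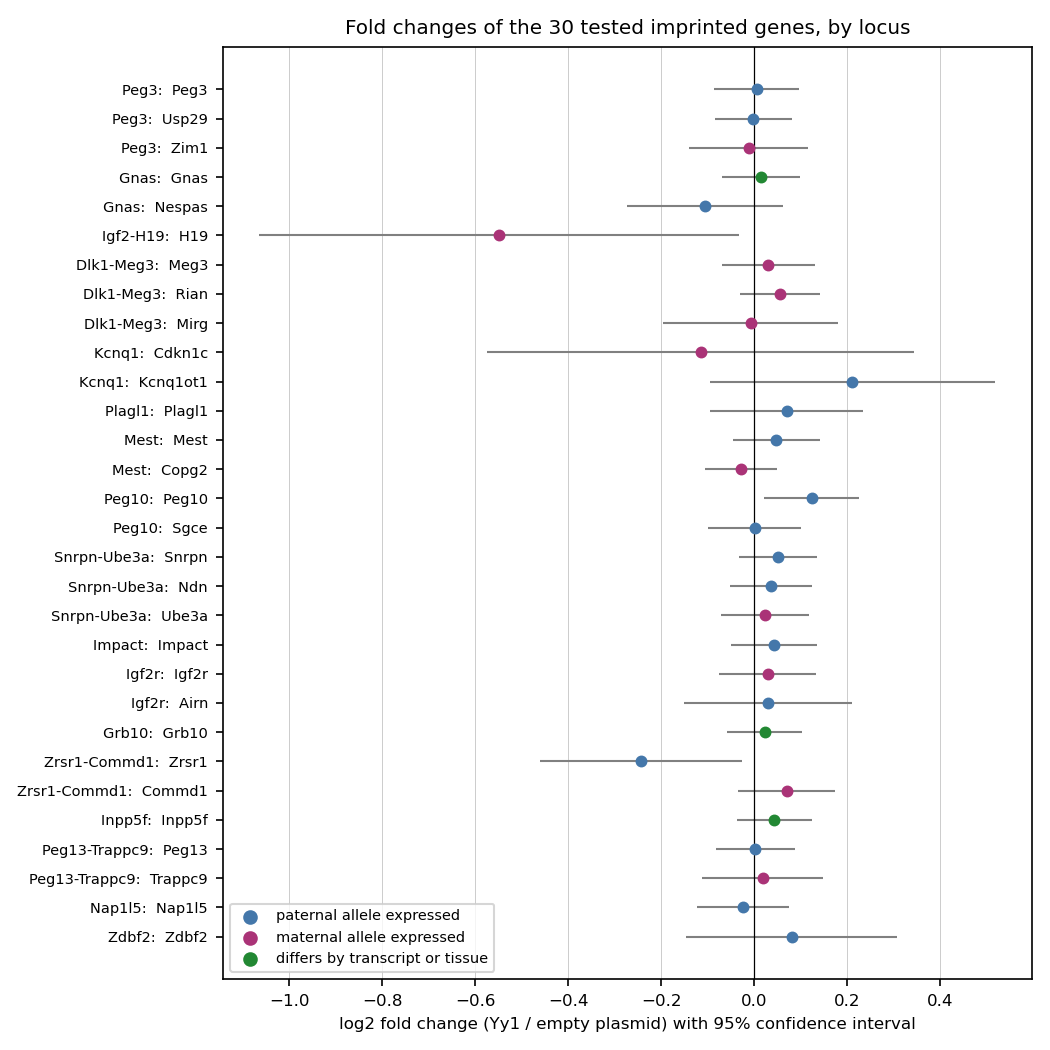
Log2 fold change (Yy1 plasmid against empty plasmid) of the 30 tested imprinted genes with 95% confidence intervals as lines, ordered by locus and coloured by the parental allele listed as expressed. Intervals are widest for the rare H19 and Cdkn1c and for Kcnq1ot1, and those of 24 genes stay within 0.25 of 0.

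Neighbours listed as expressed from opposite parental alleles were also compared within each library, because the ratio of their counts needs no scaling between libraries. For some, such as Ube3a, Commd1 and Gnas, the listing holds only in certain tissues or transcripts, and alleles were not measured in these cells. Of 10 such pairs, 8 had at least 10 counts of both genes in every library. These are ratios of counts and not of levels per length, and they are given with no test. The log2 ratio of Zim1 to Peg3 was -2.85 ± 0.102 in controls and -2.87 ± 0.102 under Yy1 (SD, n = 4). That of Nespas to Gnas was -8.36 ± 0.151 and -8.47 ± 0.103. Igf2r to Airn gave 3.87 ± 0.0912 and 3.87 ± 0.22, Ube3a to Snrpn 1.06 ± 0.141 and 1.04 ± 0.0939, and Trappc9 to Peg13 -0.76 ± 0.0722 and -0.75 ± 0.127.

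In 2 pairs the difference between the groups exceeded the pooled SD within groups. The log2 ratio of Commd1 to Zrsr1 was 1.96, 1.86, 1.53 and 2.14 in controls and 2.18, 2.24, 2.12 and 2.19 under Yy1. Control 33 was the lowest, and control 34 lay among the libraries under Yy1. The log2 ratio of Copg2 to Mest was 1.11 ± 0.022 in controls and 1.04 ± 0.0954 under Yy1, a difference of -0.073, which was -0.04 without Yy1 library 45. Leaving out 1 library at a time, it ran from -0.12 to -0.04, and the difference for Commd1 to Zrsr1, 0.31 over all libraries, ran from 0.20 without control 33 to 0.40 without control 34. That of Cdkn1c to Kcnq1ot1 was -4.99 ± 0.45 and -5.33 ± 0.305, a difference smaller than the spread. The groups overlapped in all 8 pairs.

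**Figure D5:**
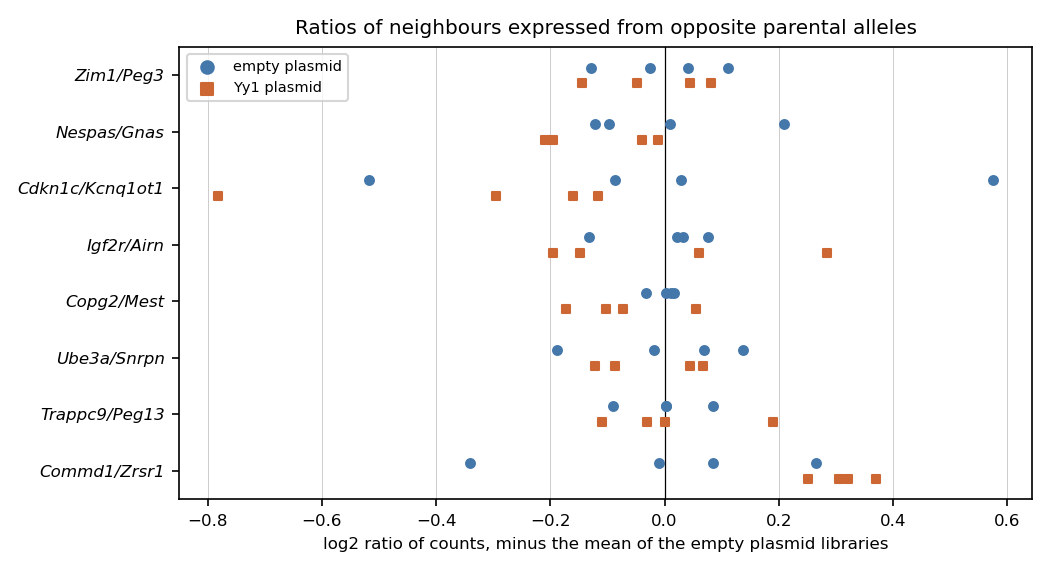
Log2 ratio of the counts of 2 neighbours in each library, minus the mean of the controls, for 8 pairs listed as expressed from opposite parental alleles, which was not measured here (circles for the empty plasmid, squares for the Yy1 plasmid). The points of the groups overlap in every pair, and Commd1 to Zrsr1 shows the 4 libraries under Yy1 close together, at or above 2.12 before the mean of 1.87 is taken off.

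Of 43 further imprinted genes, 42 matched an ID, 28 were tested and edgeR called 0 of them. An unadjusted p under 0.05 was found for 7.14% of the 28, against 5.42% of all tested genes (3.23% with a positive log2 fold change). These were 2 genes, both with positive log2 fold changes. They were Ago2, an Argonaute gene near Peg13 (0.12, SE 0.0461; edgeR adjusted p = 0.647), and Calcr, the calcitonin receptor gene near Peg10 (0.12, SE 0.0503; edgeR adjusted p = 0.803). The median over the 28 was 0.019, beside -0.0025 over all tested genes. The other genes with the smallest p were Sfmbt2 (log2 fold change -0.12, SE 0.0672) and Th (-0.12, SE 0.108). Among the untested genes of the list Slc22a3, an organic cation transporter gene near Igf2r, was singled out after its values were seen. It had 6, 6, 3 and 3 counts in controls and 0, 0, 1 and 1 under Yy1, so that its groups did not overlap. Groups did not overlap for 3.95% of all tested genes, and no such share was taken for genes below the filter. These counts are near the limit of 3 counts used above for libraries at 0.

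Factors listed for a link to imprints, not all of which keep them through cell division, were mostly present. Of 25 listed factors 20 were tested, and edgeR called 0 while 0 had an unadjusted p under 0.05. Their median log2 fold change was -0.024 and all 20 lay within 0.1 of 0. Dnmt1, the maintenance DNA methyltransferase, stood at 471 CPM in controls and 457 CPM under Yy1, and Trim28, the corepressor recruited to methylated control regions, at 313 and 305 CPM. Of the zinc finger proteins known to guide Trim28 there, Zfp445 stood at 173 and 170 CPM, while Zfp57 was near silent at 0.018 and 0.089 CPM and could not be tested. The members with the smallest p were Tet3 (log2 fold change 0.096, SE 0.0545), Setdb1 (-0.061, SE 0.039), Ehmt2 (-0.046, SE 0.0382) and Cbx5 (0.043, SE 0.0389). In the lists of other cell types, edgeR called 0 of the 4 tested beta, delta and PP cell markers and 0 of the 4 tested acinar and duct markers. Of the 3 tested stromal, endothelial and immune markers it likewise called 0, and in each of these 3 lists 1 gene had an unadjusted p under 0.05, which were Mafa (0.275 and 0.529 CPM), Sox9 (3.95 and 4.76 CPM) and Cd68 (1.14 and 0.812 CPM).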

How the data were processed

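Polyadenylated RNA of 8 libraries was sequenced from a strand-specific kit, per the labels' protocols. The deposited table holds expected counts per Ensembl gene, made with fastp, kallisto and build GRCm39 per the submitters' processing notes, without versions. How transcripts were summed to genes is not given in the sources used here. Counts were rounded. Symbols, gene types and merged exon lengths came from GENCODE mouse release 21, an older build, which named 48278 of 75078 IDs. Promoter windows came from RefSeq (GRCm38.p6).

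Low genes were removed with filterByExpr of edgeR 4.0.16 in R 4.3.3 (a CPM worth 10 counts in the median library, in at least 4 libraries, and 15 counts in total). TMM scaling and the quasi-likelihood test followed (glmQLFit and glmQLFTest, robust, two-sided), with Benjamini-Hochberg adjustment over 15916 genes and a threshold of 0.05. Each SE is the absolute log2 fold change over the root of F, and intervals used the fit's degrees of freedom. CPM used TMM-scaled library sizes. The common dispersion corresponds to a coefficient of variation of 0.0567. The fit was also run on counts simulated from its own dispersions, which cannot show whether the model suits these libraries. No pair of replicates agreed within sampling noise (chi-square per degree of freedom 2.92 to 13.9). The largest values, 9.63, 11.55 and 13.9, were those of control 33 with the other controls, and all other pairs were at most 6.48. Each library counted once, though this does not show that the cultures were separate. Limits from a count of 0 cover counting error only.

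The imprinted genes and lists were chosen with earlier results of these data known. Values per library are given for Peg3, Gnas and Nespas, for members with a p under 0.05, and for the member with the highest CPM of each locus with several members. Up to 4 genes of each other list with the smallest p may be named. Alternatives were RLE, upper-quartile and library size scaling, Yy1 left out, 2 other filters, only genes with a symbol, DESeq2 1.42.0, limma-voom (limma 3.58.1) and each library left out. A term for odd against even sample numbers and length of the longest transcript were added after seeing the data.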

Additional observations from a re-analysis of the deposited data

Results flagged for a closer look

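Of 76 groups of 4 libraries examined for the 30 tested imprinted genes and the 8 ratios, 3 held a library that stood far from the other three by Dixon's criterion. Chance flags about 1 in 20 groups. Kcnq1ot1 stood at 56.95 CPM in empty plasmid 34 and between 40.38 and 42.8 CPM in the others of that group. Cdkn1c, from the same locus, stood at 2.01 CPM in empty plasmid 33 against 1.242 to 1.298 CPM. Gnas stood at 4806 CPM in empty plasmid 33 against 4680 to 4696 CPM, a narrow range.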

How the results depend on the processing

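The number of genes called over the whole table was 82, and was 54 when 1 CPM was required in 4 or more libraries, 174 with no filter and 20 with only genes with a symbol. It ran from 65 to 87 when single libraries were left out. Imprinted genes called were 0 in all settings but 1: the range without single libraries was 0 to 1, and the call was Kcnq1ot1 without empty plasmid 34. Their median log2 fold change ran from 0.011 to 0.034 without single libraries. Directions were kept except in small values. Without single libraries Peg3 ran up to 0.026, Igf2r to 0.073, Peg13 to 0.018 and Ube3a to 0.060 (log2 fold change), and Peg3 had -0.025 without empty plasmid 31, -0.0028 without 32, -0.0068 without Yy1 plasmid 46 and -0.0073 without 48. Igf2r had -0.0024 without empty plasmid 31 and -0.0044 without Yy1 plasmid 47. Peg13 had -0.0058 and -0.012 without empty plasmid 31 and 33 and -0.011 without Yy1 plasmid 48, and Ube3a had -0.017 without empty plasmid 33. The cause was not tested. With a term for odd against even numbers, 86 genes and 0 members were called. The stricter motif form left 1 window in place of 5. No paired analysis was possible because the groups share no sample numbers. Depth limits H19, Cdkn1c and the 8 untested genes.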
